A study of Mus musculus with 9 samples.

Results

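The proteasome is the cell's main ATP-dependent protease, and its subunits are encoded by the Psm genes. The constitutive members were taken as every gene of the expression table whose symbol is Psma, Psmb, Psmc, Psmd, Psme or Psmf followed by a number, leaving out the inducible catalytic genes Psmb8, Psmb9 and Psmb10. This gave 39 of 13179 genes, and all 39 passed the filter on low values (3 or more libraries at 1 or above), which 13137 genes passed. They comprise 14 core genes (7 of the alpha ring, 7 of the beta ring), 20 genes of the regulatory particle (6 of the ATPase ring, 3 of the non-ATPase base, 8 of the lid, 3 base assembly chaperones), 4 activators and 1 inhibitor. PolyA RNA was sequenced from gastrocnemius, the main calf muscle, of mice fed a high-fat diet (HFD) for 6 weeks, a diet that all groups shared. There were 3 p38alphaMCK-KO libraries (p38α KO), 3 p38alpha/gammaMCK-KO libraries (p38α/γ KO) and 3 control libraries. Mapk14 and Mapk12 encode the stress-responsive kinases p38α and p38γ, and MCK is the usual short name of the muscle creatine kinase promoter, which drives Cre in muscle fibres, so other cells of the tissue keep the genes. The labels do not spell out that promoter, say nothing of the control's floxed or Cre alleles, of age or of sex, and do not say that the 3 libraries of a group came from separate mice, so p-values measure the spread between libraries, which may be technical. The study's design names the contrasts of each knockout with the control and of the knockouts with each other.

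The core particle is a barrel of stacked rings. The outer alpha rings gate the entry, and the inner beta rings hold the proteolytic sites, which are formed by Psmb5, Psmb6 and Psmb7. The regulatory particle caps the barrel: its base, an ATPase ring with non-ATPase subunits, binds and unfolds ubiquitin-tagged proteins, and its lid removes the ubiquitin chain. Other caps can take its place, among them the PA28 complexes encoded by Psme1, Psme2 and Psme3 and the large single-chain activator encoded by Psme4. In skeletal muscle the ubiquitin-proteasome system carries much of the turnover of myofibrillar proteins, and it is known for its part in muscle atrophy.

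Mapk14 was 43.8, 45.5 and 40.3 in the p38α KO libraries, 54.7, 37.0 and 42.7 in the p38α/γ KO libraries and 143, 149 and 157 in the controls, and Mapk12 was 31.2, 35.5 and 32.8 in the p38α/γ KO libraries, against 96.5, 103 and 105 in the p38α KO libraries and 139.9, 138 and 152 in the controls, so the deleted genes were low where the labels say. Mapk12 was also lower in p38α KO than in control muscle (log2 change -0.49, adjusted p = 0.00601 by limma). All values are the authors' normalised counts, and scaled library totals inferred from the step between values ran from 23821000 to 27944400. p38α KO library 1 stood apart from its group (lowest correlation 0.96 within the group, against 0.987 and 0.991 in the p38α/γ KO and control groups), and calls of proteasome genes that change without it are given. Markers are counted as called, rising or falling, at an adjusted p below 0.05 against control muscle by limma. Of all tested genes 7.32% rose and 10.4% fell in p38α KO muscle, and 11.2% rose and 14.4% fell in p38α/γ KO muscle. All 12 muscle fibre markers were tested, and none rose, 2 fell in p38α KO muscle and 1 in p38α/γ KO muscle. Their summed levels were 115567 to 163571 in p38α KO, 140260 to 146973 in p38α/γ KO and 183390 to 199380 in control libraries. Of 20 macrophage markers 15 rose in p38α KO muscle and 19 in p38α/γ KO muscle, with summed levels of 320 to 695, 422 to 682 and 170 to 222 in the p38α KO, p38α/γ KO and control libraries. Of 16 markers of fibro-adipogenic progenitors and matrix 2 and 8 rose, with summed levels of 2287 to 4089, 3238 to 4509 and 2109 to 2731. Of 12 endothelial markers none was called in p38α KO muscle, while 1 rose and 2 fell in p38α/γ KO muscle, and of 10 adipocyte markers 1 fell in p38α KO muscle and none was called in p38α/γ KO muscle. None of 12 lymphocyte and neutrophil markers passed the filter. In bulk tissue fewer cells of a type and less RNA per cell cannot be told apart, and the part that other cells have in the results on proteasome genes was not tested.

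Most proteasome genes differed little between the knockouts and the controls, and the exceptions lay in a few named subunits. In p38α KO muscle Psme4 and Psmd8 fell and no member rose. In p38α/γ KO muscle Psmb4 and Psmd13 rose, and Psme4, Psmd8, Psmd6, Psmc6 and Psmd14 fell. A gene was called when its p from limma, Benjamini-Hochberg adjusted over all tested genes, was below 0.05. The share of members called was 5.13% (2 of 39) in p38α KO against control muscle, where 17.8% of all genes were called (7.32% higher, 10.4% lower). It was 17.9% (7 of 39) in p38α/γ KO against control muscle, where 25.6% of all genes were called (11.2% higher, 14.4% lower). The share of members was thus below that of the table in both comparisons, which use the same control libraries. At an unadjusted p below 0.05, 9 and 11 members passed in the p38α KO and p38α/γ KO comparisons, where 34% and 41% of all genes did.

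**Figure D1:**
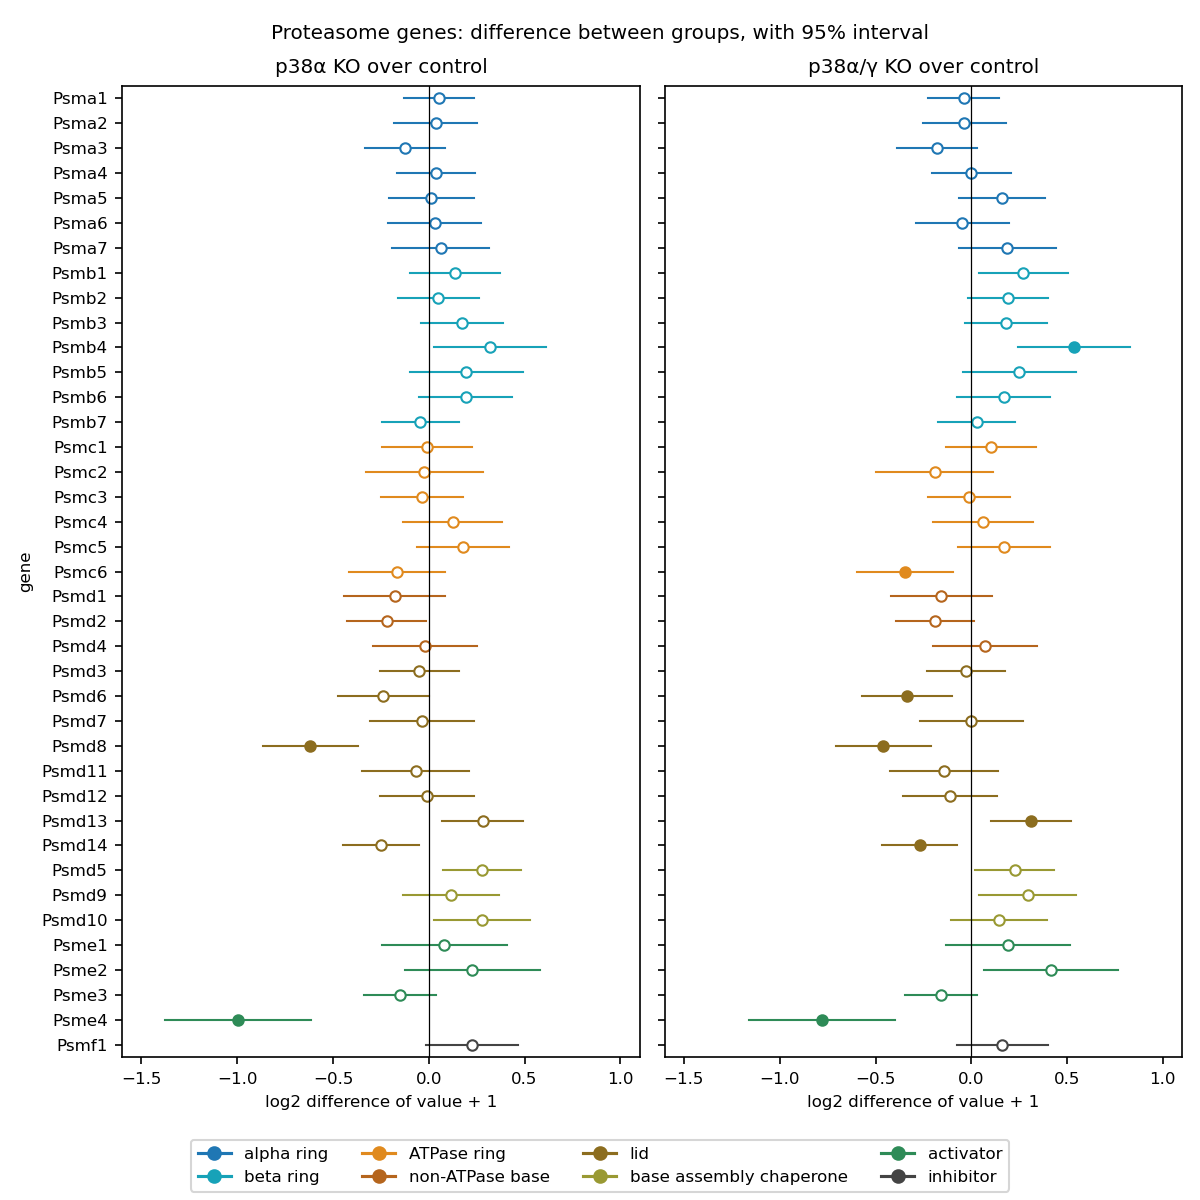
Difference in log2(value + 1) of each of the 39 genes for p38α KO over control (left) and p38α/γ KO over control (right), as points with 95% intervals, coloured by the part of the complex and filled where the adjusted p was below 0.05. Most intervals include 0, and Psme4 stands furthest left in both panels, at -0.996 and -0.78.

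The members' changes were also narrower than those of the table. The interquartile range of their log2 changes was 0.214 in p38α KO and 0.333 in p38α/γ KO muscle, against 0.443 and 0.514 over all tested genes, around medians of 0.03 and 0.03 (0.01 and 0.02 over all genes). The 95% interval of the change lay wholly within 0.5 log2 units of 0 for 34 of 39 members in p38α KO muscle and for 28 in p38α/γ KO muscle, against 42.4% and 39.1% of all tested genes. The members' standard errors were smaller too, with a median of 0.107 log2 units against 0.139 over all genes. These comparisons with all genes were not matched for level. Summed over all 39 genes, the members took 0.460%, 0.445% and 0.492% of the p38α KO libraries, 0.443%, 0.523% and 0.469% of the p38α/γ KO libraries and 0.420%, 0.435% and 0.432% of the control libraries. The share in each knockout library therefore lay above that in every control, with p38α/γ KO library 1 the closest to them. The members' summed values themselves were not higher in the knockouts. They averaged 4457 ± 388 in p38α KO, 4543 ± 350 in p38α/γ KO and 4726 ± 112 in control libraries (SD, n = 3 each). The sum over all genes, by which the share divides, averaged 956462, 951142 and 1101840.

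Psme4 encodes an activator of the barrel that works without ATP and is known in mice for its role in sperm development. It showed the largest change of any member. It was at 143, 227 and 242 in the p38α KO libraries, at 253, 218 and 225 in the p38α/γ KO libraries and at 403, 389.6 and 401 in the controls. All 6 knockout libraries lay below all 3 controls, and p38α KO library 1 was the lowest. The group means were 204 ± 53.0 in p38α KO, 232 ± 18.7 in p38α/γ KO and 398 ± 7.46 in control muscle (SD, n = 3 each). The fall was 1.995-fold in p38α KO muscle (log2 change -0.996, SE 0.17, adjusted p = 0.00635) and 1.72-fold in p38α/γ KO muscle (log2 change -0.78, SE 0.17, adjusted p = 0.0138) by limma. The p38α KO call held in all 25 alternatives run, including the fit without library 1, with log2 changes from -1.14 to -0.76. The p38α/γ KO call missed the threshold when p38α/γ KO library 2 or 3 or control library 1 or 3 was left out (adjusted p = 0.061, 0.0531, 0.0507 and 0.0501). Psme4 is also the longest member, with a principal transcript of 6491 bases in 47 exons at chr11:30771726-30880361 (GRCm38), and the change kept its call in both comparisons after a trend of change on transcript length was removed, an alternative chosen after seeing the data.

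The other activators and the inhibitor did not pass the test with all 9 libraries. Psme1 and Psme2 encode the partner chains of the PA28 ring, a cap induced by interferon gamma. Psme1 was at 48.2, 37.2 and 32.0 in p38α KO, 36.2, 44.1 and 45.6 in p38α/γ KO and 37.1, 34.4 and 37.9 in control libraries. Psme2 was at 33.7, 24.4 and 20.9 in p38α KO, 26.5, 31.4 and 31.0 in p38α/γ KO and 22.1, 20.2 and 23.4 in control libraries. For Psme2 the 3 p38α/γ KO libraries lay above the controls (log2 change 0.42, adjusted p = 0.0765, and 0.00827 without p38α KO library 1, 0.036 without p38α KO library 3 and 0.00722 in a fit of these 6 libraries alone), and the p38α KO libraries overlapped them, with library 1 highest. Mouse Psme2 has a near-identical retrogene copy, so reads could have been split between the copies and its level is uncertain. Psme3, whose product forms the nuclear PA28 cap, ranged from 54.5 to 62.5 in p38α KO, from 56.8 to 59.9 in p38α/γ KO and from 61.3 to 69.6 in control libraries (log2 changes -0.15 and -0.16, adjusted p = 0.24 and 0.188 by limma). Psmf1, which encodes an inhibitor and assembly partner of the core, was at 16.1, 19.3 and 21.3 in p38α KO, 17.1, 18.7 and 18.1 in p38α/γ KO and 16.5, 15.5 and 15.8 in control libraries. Its log2 changes were 0.22 and 0.16 (adjusted p = 0.171 and 0.274 by limma), and without p38α KO library 1 the p38α KO change passed the threshold (adjusted p = 0.0294).

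The lid held the second member that fell in both knockouts. Psmd8 encodes a small structural subunit that joins the lid last. It was at 154, 152 and 197 in the p38α KO libraries, at 175, 199.5 and 184 in the p38α/γ KO libraries and at 246, 252 and 269 in the controls. No knockout library reached the lowest control. The group means were 167 ± 25.4 in p38α KO, 186 ± 12.6 in p38α/γ KO and 256 ± 12.2 in control muscle (SD, n = 3 each), a fall of 1.53-fold in p38α KO (log2 change -0.62, SE 0.11, adjusted p = 0.00731) and of 1.37-fold in p38α/γ KO (log2 change -0.46, SE 0.11, adjusted p = 0.0187). The p38α KO call held in all 25 alternatives, with log2 changes from -0.74 to -0.48. The p38α/γ KO call missed the threshold without p38α/γ KO library 3 (adjusted p = 0.0661) and without control library 1, 2 or 3 (adjusted p = 0.0539, 0.0515 and 0.073).

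The promoters of these genes are shown because both fell in both knockouts. Those of Psmc6 and Psmb5 are shown as examples of the 5 members with a match to the core of the antioxidant response element. Through that element the factor encoded by Nfe2l1 is known to switch on proteasome genes. Whether the factor acts at these matches was not tested. Each line gives the 250 bases before the RefSeq transcription start (GRCm38.p6), 5′ to 3′ on the strand of the gene. The GENCODE starts of these genes lie inside the windows, at 30771726 (Psme4), 29180701 (Psmd8), 45329788 (Psmc6) and 54618022 (Psmb5). Distances to the start are therefore distances to the RefSeq start only. Capitals mark the GC box GGGCGG and the core of the antioxidant response element, TGACNNNGC, on either strand.
Psme4 (+ strand, chr11:30771525-30771774): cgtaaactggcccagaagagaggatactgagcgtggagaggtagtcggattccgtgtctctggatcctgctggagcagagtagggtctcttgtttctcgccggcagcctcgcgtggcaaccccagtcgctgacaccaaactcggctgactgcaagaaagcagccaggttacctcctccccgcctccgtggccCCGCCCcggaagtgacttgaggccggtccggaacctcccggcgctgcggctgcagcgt
Psmd8 (− strand, chr7:29180674-29180923): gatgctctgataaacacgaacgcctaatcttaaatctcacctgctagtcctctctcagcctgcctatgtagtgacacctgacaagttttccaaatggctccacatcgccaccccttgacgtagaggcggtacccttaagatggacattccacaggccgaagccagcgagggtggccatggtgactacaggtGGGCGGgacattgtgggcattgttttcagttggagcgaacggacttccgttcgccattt
Psmc6 (+ strand, chr14:45329574-45329823): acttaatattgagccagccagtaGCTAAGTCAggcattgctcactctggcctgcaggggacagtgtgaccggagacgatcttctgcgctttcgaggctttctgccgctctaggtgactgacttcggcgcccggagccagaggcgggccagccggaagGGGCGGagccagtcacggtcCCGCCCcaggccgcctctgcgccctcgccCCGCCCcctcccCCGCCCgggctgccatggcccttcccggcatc
Psmb5 (− strand, chr14:54617996-54618245): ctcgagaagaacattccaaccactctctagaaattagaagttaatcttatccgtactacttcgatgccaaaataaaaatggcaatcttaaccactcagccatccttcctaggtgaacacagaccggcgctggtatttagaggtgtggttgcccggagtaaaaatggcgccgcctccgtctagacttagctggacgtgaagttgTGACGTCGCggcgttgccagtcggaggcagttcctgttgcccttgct
Psme4 and Psmd8 held a single GC box each, its first base 58 and 59 bases before the start, and no antioxidant response element core. Psmc6 held the element core 227 bases before the start, on the opposite strand, with 4 GC boxes, and Psmb5 held it 47 bases before the start. Of the 39 members 33 had a promoter in the RefSeq table, 36 promoters in all. The element core stood in 5 of these 36 (13.9%: those of Psmb5, Psmb6, Psmc6, Psmd9 and Psmd12), against 10.2% of 32851 promoters of the same length. The GC box stood in 21 (58.3%, against 32.7%), and the CCAAT box, searched on both strands as CCAAT, in 12 (33.3%, against 33.8%). The MEF2 site of muscle genes stood in none of the members' windows and in 2.92% of all promoters. These background shares cover all RefSeq promoters and were not limited to the genes tested here or matched for base content. By part of the complex, the GC box stood in 12 of 17 matched genes of the regulatory particle and in 5 of 11 of the core.

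Among the other lid genes the changes were smaller and went both ways. Psmd14 encodes the metalloprotease that cuts off the ubiquitin chain. It was at 40.7, 43.1 and 47.0 in p38α KO, at 45.0, 44.3 and 39.7 in p38α/γ KO and at 53.7, 49.4 and 53.0 in control libraries, so the knockout libraries all lay below the controls. It fell in p38α/γ KO muscle (log2 change -0.27, adjusted p = 0.0493, and 0.0963 with replicate number as a block), while in p38α KO muscle its log2 change of -0.25 had an adjusted p of 0.0772. Psmd6, a horseshoe-shaped lid scaffold, was at 87.1, 99.7 and 116 in p38α KO, 89.9, 99.7 and 91.1 in p38α/γ KO and 119, 114 and 122 in control libraries. It fell in p38α/γ KO muscle (log2 change -0.34, adjusted p = 0.0433, and 0.0645 with the block). In p38α KO muscle the log2 change of Psmd6 was -0.24 (adjusted p = 0.147) and library 3 overlapped the controls.

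Psmd13, another lid scaffold, moved the other way. It was at 108, 97.7 and 104 in p38α KO, at 94.2, 118 and 105 in p38α/γ KO and at 84.4, 83.2 and 86.8 in control libraries, with every knockout library above the controls. It rose in p38α/γ KO muscle (log2 change 0.31, adjusted p = 0.0375, and 0.0744 with the block). In p38α KO muscle its log2 change was 0.28 (adjusted p = 0.0658). The remaining lid genes Psmd3, Psmd7, Psmd11 and Psmd12 had log2 changes of -0.07 to -0.01 in p38α KO and of -0.14 to -0.00 in p38α/γ KO muscle, and none was called. In all, 7 of 8 lid genes lay below 0 in p38α KO muscle, where 51% of all genes lay above 0, and 7 of 8 in p38α/γ KO muscle, where 51.5% lay above it, but after quantile normalisation 3 and 5 did, and without p38α KO library 1 there were 3 in p38α KO muscle.

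**Figure D2:**
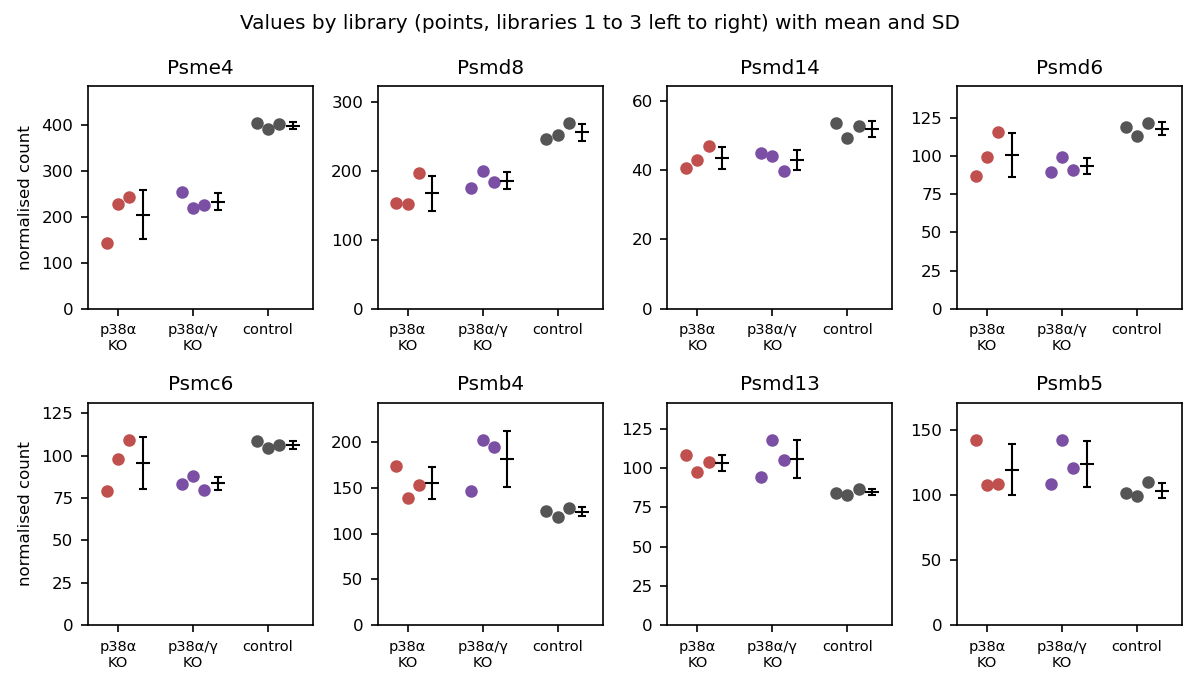
Normalised counts of 8 proteasome genes by library (points) with group means and SD (bars), for p38α KO, p38α/γ KO and control muscle, each axis starting at 0. In Psme4, Psmd8 and Psmd14 all 6 knockout points lie below the controls, in Psmb4 and Psmd13 all 6 lie above them, and in Psmb5 the groups overlap.

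In the base, 1 gene passed the test. Psmc6, a subunit of the ATPase ring, was at 79.4, 97.8 and 109 in p38α KO, at 83.3, 87.7 and 79.7 in p38α/γ KO and at 109, 104 and 106 in control libraries. The p38α/γ KO libraries all lay below the controls and the p38α KO libraries overlapped them. It fell in p38α/γ KO muscle (log2 change -0.35, adjusted p = 0.0467), but the call was lost with the block (adjusted p = 0.0757) and in p38α KO muscle its log2 change was -0.17 (adjusted p = 0.32). Of 9 fits that left out 1 library each, those without p38α KO library 1 or 3 kept the p38α/γ KO calls of Psmc6, Psmd6, Psmd13 and Psmd14, and the fit without p38α/γ KO library 1 kept that of Psmd13. The other such fits put their adjusted p as high as 0.143 for Psmc6, 0.129 for Psmd6, 0.14 for Psmd13 and 0.173 for Psmd14. Removing a trend of change on GC content took it to 0.533 for Psmc6, 0.29 for Psmd14, 0.0757 for Psmd13 and 0.0689 for Psmd6, and quantile normalisation took it to 0.124 for Psmc6, 0.11 for Psmd14 and 0.0983 for Psmd6. Median-of-ratios scaling gave 0.051 for Psmc6 and 0.0542 for Psmd14, removing the length trend gave 0.0544 for Psmd13, and leaving out the mean-variance trend gave 0.0548 to 0.0694 for the 4 genes. In p38α KO muscle Psmd6 and Psmd14 passed without p38α KO library 3 (adjusted p = 0.029 and 0.0399), Psmd14 also with the length trend removed (0.0389), and Psmd13 after quantile normalisation (0.0212). Psmc4, another subunit of the ATPase ring, was at 84.1, 83.0 and 97.5 in p38α KO, 71.1, 96.5 and 86.6 in p38α/γ KO and 83.4, 78.9 and 79.4 in control libraries, and the groups overlapped. The other ATPase genes, Psmc1, Psmc2, Psmc3 and Psmc5, had log2 changes from -0.04 to 0.18 in p38α KO and from -0.19 to 0.17 in p38α/γ KO muscle, and none was called.

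Of the non-ATPase base, Psmd1 and Psmd2 encode the large ring-shaped scaffolds to which shuttle factors and ubiquitin bind, and Psmd4 encodes a ubiquitin receptor. Psmd2 was at 271, 309.9 and 337 in p38α KO, at 305, 323 and 306 in p38α/γ KO and at 354, 347 and 364 in control libraries, with no overlap between knockouts and controls. Its log2 changes were -0.22 and -0.19 (adjusted p = 0.124 and 0.147 by limma), which did not pass, although the first did without p38α KO library 3 (0.043) and the second without p38α KO library 1 (0.0389). Psmd1 was at 158, 196 and 222 in p38α KO, 180.4, 204 and 195 in p38α/γ KO and 210.4, 213 and 222 in control libraries. Psmd4 was at 142, 158 and 192 in p38α KO, 154, 192 and 177 in p38α/γ KO and 161, 162 and 172 in control libraries. Both had groups that overlapped in p38α KO muscle, and neither was called.

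The base assembly chaperones, which hold the ATPases apart until the ring closes and are not part of the finished complex, lay above 0 in every setting. Psmd5 was at 24.2, 25.3 and 25.4 in p38α KO, 22.3, 26.0 and 24.0 in p38α/γ KO and 19.6, 19.5 and 22.3 in control libraries. Psmd9 ranged from 20.1 to 22.5 in p38α KO, from 20.8 to 26.98 in p38α/γ KO and from 18.1 to 21.3 in control libraries. Psmd10, whose product is also called gankyrin, ranged from 9.73 to 12.2 in p38α KO, from 9.09 to 10.2 in p38α/γ KO and from 8.00 to 8.91 in control libraries. All 3 had log2 changes above 0, from 0.12 to 0.28 in p38α KO and from 0.14 to 0.29 in p38α/γ KO muscle, and stayed above 0 in all 26 alternatives. None passed the test, with adjusted p from 0.064 to 0.495 and from 0.0803 to 0.353 by limma. Psmd5 passed once the length trend (adjusted p = 0.034 and 0.0369) or the GC trend (adjusted p = 0.0331 and 0.0342) was removed, alternatives chosen after seeing the data, and in p38α KO muscle after quantile normalisation (0.0478). Psmd9 passed in p38α/γ KO muscle without p38α KO library 1 (adjusted p = 0.0483) or p38α/γ KO library 1 (0.0316).

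In the core, 1 beta gene and no alpha gene was called. It was Psmb4, which encodes a non-catalytic beta subunit whose tail helps hold the barrel together. It was at 174, 139 and 153 in p38α KO, at 147, 203 and 195 in p38α/γ KO and at 125, 119 and 128 in control libraries, and every knockout library lay above the controls. The group means were 155 ± 17.6 in p38α KO, 182 ± 30.5 in p38α/γ KO and 124 ± 4.86 in control muscle (SD, n = 3 each). It rose 1.45-fold in p38α/γ KO muscle (log2 change 0.53, SE 0.13, adjusted p = 0.0195, and 0.0431 with the block). The call missed the threshold without p38α/γ KO library 2 or 3 (adjusted p = 0.0831 and 0.0757) and without control library 1, 2 or 3 (adjusted p = 0.062, 0.0631 and 0.0578), as it did with the block once the length or GC trend was removed (0.0513 and 0.0511). In p38α KO muscle its log2 change was 0.32 (adjusted p = 0.118, and 0.0389 after quantile normalisation).

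The catalytic genes were not called in either knockout in the main fit. Psmb5, the chymotrypsin-like site, was at 142, 108 and 109 in p38α KO, 108, 143 and 121 in p38α/γ KO and 101, 98.9 and 110.0 in control libraries, with both knockout groups overlapping the controls. Psmb6, the caspase-like site, was at 131, 116 and 134 in p38α KO, 109, 141 and 127 in p38α/γ KO and 116, 104 and 113 in control libraries. Psmb7, the trypsin-like site, was at 225, 217 and 252 in p38α KO, 223, 262 and 245 in p38α/γ KO and 239.7, 233 and 242 in control libraries. Their log2 changes lay between -0.04 and 0.20 in p38α KO and between 0.03 and 0.25 in p38α/γ KO muscle. The interval of Psmb5 reached furthest up, from -0.05 to 0.54 in p38α/γ KO muscle. Of the remaining beta genes, Psmb1, Psmb2 and Psmb3 had log2 changes of 0.05 to 0.17 in p38α KO and of 0.18 to 0.27 in p38α/γ KO muscle without a call. Psmb1 passed in p38α/γ KO muscle without p38α KO library 1 (adjusted p = 0.0467) or p38α/γ KO library 1 (0.0201), with the GC trend removed (0.0392) and after quantile normalisation (0.0321), which Psmb2 also passed (0.0459). The 7 alpha genes, Psma1 to Psma7, had log2 changes from -0.12 to 0.06 in p38α KO and from -0.18 to 0.19 in p38α/γ KO muscle, none called, and all their 95% intervals lay within 0.5 of 0. In p38α/γ KO muscle 7 of 7 beta genes lay above 0, but after the length trend was removed 3 did.

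**Figure D3:**
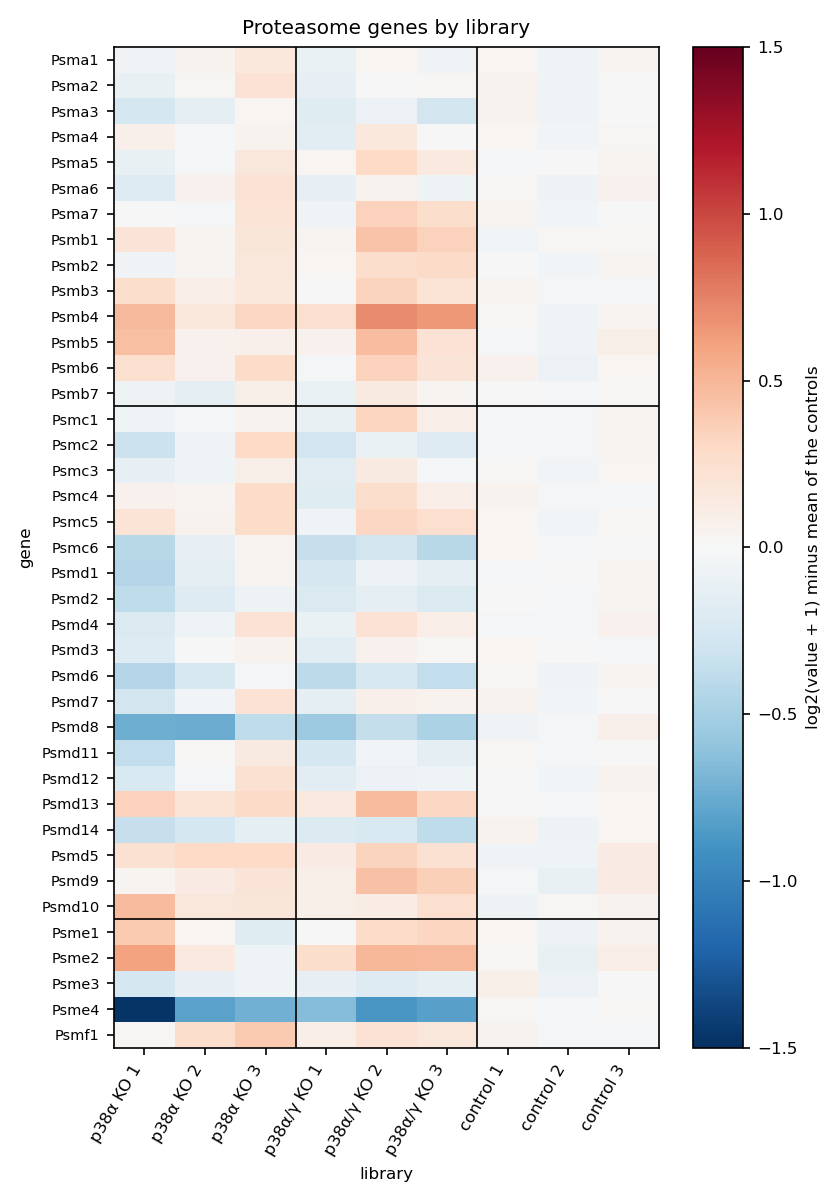
log2(value + 1) of each of the 39 genes (rows, grouped as core, regulatory particle and activators or inhibitor between the horizontal lines) in each library (columns, p38α KO, p38α/γ KO and control), minus the mean of the 3 control libraries. The dark blue row is Psme4, the blue row in the regulatory particle is Psmd8, and the library columns of the knockouts differ from each other within a group.

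Set against each other, the mean of the core lay higher relative to that of the regulatory particle in the knockouts, mostly through the beta ring. The mean log2 change in p38α KO and p38α/γ KO muscle was 0.146 and 0.2323 for the beta ring and 0.0157 and 0.0067 for the alpha ring. For the regulatory particle it was -0.0329 and -0.043. The mean log2 value of the 14 core genes minus that of the 20 regulatory particle genes was 0.2012, 0.0525 and 0.03 in the p38α KO libraries, 0.106, 0.1691 and 0.1548 in the p38α/γ KO libraries and 0.0022, -0.031 and -0.0289 in the controls. Neither knockout group overlapped the controls, the knockout groups overlapped each other, and p38α KO library 1 was the highest of all. The difference of group means was 0.1138 for p38α KO and 0.1625 for p38α/γ KO over control, with a pooled SD between libraries of 0.058, and no test was run on it because the members were chosen with earlier results known. Without p38α KO library 1 the p38α KO difference was 0.0605. Core transcripts are shorter, with a median of 1162.5 bases against 1710.5 for the regulatory particle, and when a trend of change on transcript length over all genes was removed the differences were 0.0607 and 0.0821. Leaving out the 3 chaperones gave 0.1591 and 0.2092.

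**Figure D4:**
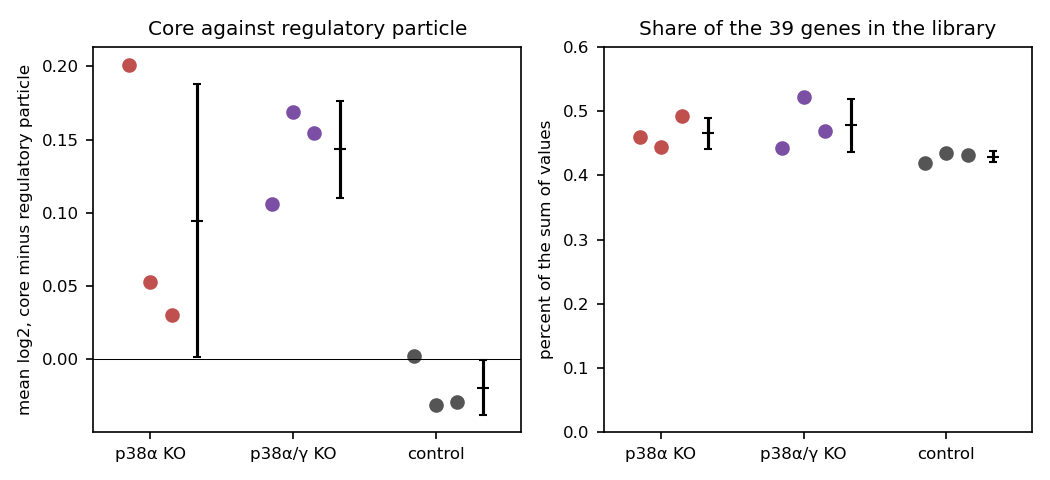
Mean log2 value of the 14 core genes minus that of the 20 regulatory particle genes (left) and share of the 39 genes in the sum of each library, in percent from 0 (right), by library with group mean and SD, for p38α KO, p38α/γ KO and control muscle. All 6 knockout libraries lie above the controls in both panels, and p38α KO library 1 is highest in the left panel at 0.2012. The library sums by which the shares divide were lower in the knockouts than in the controls.

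Per kilobase of transcript, the members' levels spanned a wide range. In control muscle the highest was Psmb7, at 205 ± 4.11 per kb, followed by Psmd8 at 166 ± 7.9 and Psmb6 at 139 ± 7.89 per kb (SD, n = 3 each). Other beta genes lay between 64.5 and 115 per kb, the ATPase genes between 47.7 and 127 and the lid genes other than Psmd8 between 33.8 and 108. In p38α KO and p38α/γ KO muscle Psmd8 averaged 109 ± 16.5 and 121 ± 8.21 per kb, against 166 in controls, which placed it within the range of the other lid and ATPase genes. Psme4 averaged 31.4 ± 8.17 and 35.7 ± 2.88 per kb in the knockouts, against 61.3 ± 1.15 in controls, where it was the highest of the activators, above Psme1 at 32.8 ± 1.66. The chaperones and Psmf1 were the lowest, between 4.19 and 7.55 per kb in controls. The levels of Psma2 and Psma3 may be understated, since the transcript models used for them are 2911 and 2846 bases long.

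Direct comparison of the knockouts found no member called, with 0 at an unadjusted p below 0.05 as well, where 58 of 13137 genes (0.442%) were called and 12% had an unadjusted p below 0.05. The p38α KO and p38α/γ KO groups overlapped for all 39 members, while they did not overlap for 14.3% of all genes. The log2 changes of p38α KO over p38α/γ KO lay between -0.22 and 0.18, and for 36 of 39 members the 95% interval lay within 0.5 of 0. For Psme4 the interval ran from -0.60 to 0.16 (log2 change -0.22) and for Psmd8 from -0.41 to 0.09 (log2 change -0.16), so lower levels in p38α KO than in p38α/γ KO muscle of up to those sizes were not resolved. Without p38α KO library 1, Psmc6 and Psme2 passed the threshold in this comparison (adjusted p = 0.03 and 0.0479). Between each knockout and the controls, groups did not overlap for 11 members in p38α KO (7 higher, 4 lower; 38.6% of all genes) and for 19 in p38α/γ KO muscle (7 higher, 12 lower; 55% of all genes).

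Within a group the members tended to move together from library to library. In the p38α/γ KO group library 1 held the lowest value for 34 of 39 members and library 2 the highest for 31, against 36.2% and 32.7% of all genes. In the p38α KO group library 1 was lowest for 24 and library 3 highest for 30 members, against 41.6% and 36.2% of all genes. In the control group library 2 was lowest for 32 and library 3 highest for 23 members, against 38.4% and 31.4%. The members varied less than the table as a whole: their median coefficient of variation was 10.3% in p38α KO, 8.10% in p38α/γ KO and 3.05% in control muscle, against 16.0%, 9.82% and 8.16% over all genes. The spread of the members in the controls was thus the smallest, and that in the p38α KO group the largest. Level was not matched: the lowest member value in any library was 8.00, while the table kept genes that reached 1 in 3 libraries.

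The inducible catalytic genes, which replace Psmb5, Psmb6 and Psmb7 in the immunoproteasome and are high in immune cells, were set beside their constitutive partners. Psmb10 was at 21.9, 13.3 and 15.2 in p38α KO, at 12.8, 17.2 and 18.5 in p38α/γ KO and at 9.74, 8.59 and 8.34 in control libraries. It rose in both knockouts (log2 changes 0.82 and 0.78, adjusted p = 0.0173 and 0.0172 by limma), and Psmb8 rose as well (log2 changes 0.55 and 0.57, adjusted p = 0.0345 and 0.0246). These calls were lost in some fits that left out 1 library, with adjusted p up to 0.0715 for Psmb10 (without p38α/γ KO library 2) and 0.108 for Psmb8 (without control library 3). The Psmb8 call was also lost in p38α KO muscle after quantile normalisation (0.0583) and with the length or GC trend removed (0.0558 and 0.0613), and in p38α/γ KO muscle with the GC trend removed (0.0538). Psmb9 had log2 changes of 0.58 and 0.45 (adjusted p = 0.138 and 0.202 by limma). The ratio of Psmb10 to Psmb7 was 0.0972, 0.0612 and 0.0602 in p38α KO, 0.0575, 0.0657 and 0.0756 in p38α/γ KO and 0.0406, 0.0369 and 0.0345 in control libraries, and neither knockout group overlapped the controls. The ratios of Psmb8 to Psmb5 and of Psmb9 to Psmb6 overlapped between p38α/γ KO and control libraries and lay above the controls in the 3 p38α KO libraries. The macrophage markers named above rose in the same libraries, and 6 of 18 interferon response genes rose in p38α KO and 7 in p38α/γ KO muscle, including Irf1 and Tap2. Their part in these ratios was not tested.

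**Figure D5:**
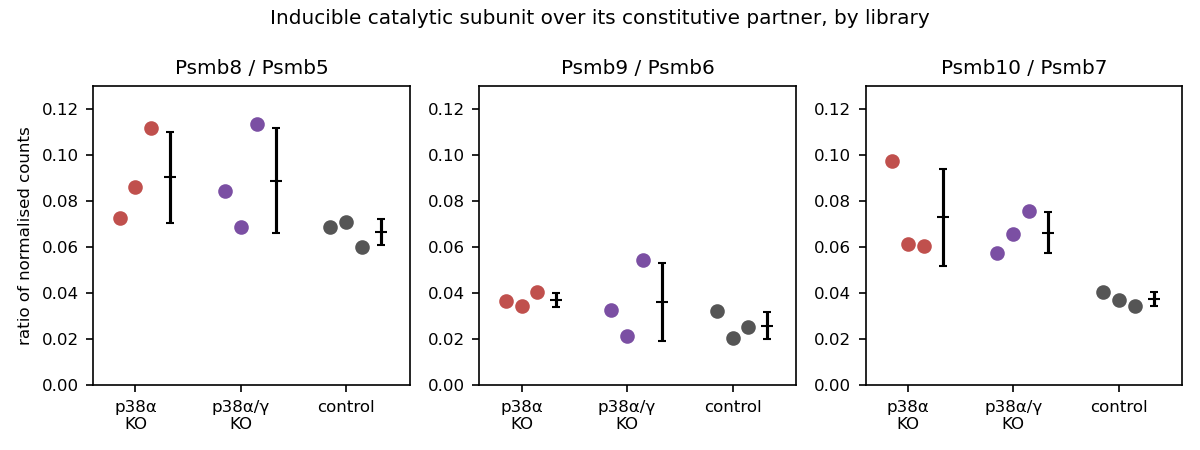
Ratio of each inducible catalytic gene to its constitutive partner (Psmb8 to Psmb5, Psmb9 to Psmb6, Psmb10 to Psmb7) by library with group mean and SD, for p38α KO, p38α/γ KO and control muscle, axes from 0. The inducible genes stayed below 0.12 of their partners in every library, and only for Psmb10 over Psmb7 do all knockout points lie above the controls.

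Genes that act around the proteasome were counted by list. Of 14 tested enzymes and adaptors that bind it, none rose, 3 fell in p38α KO and 4 in p38α/γ KO muscle, with list medians of -0.22 and -0.26. Those that fell in both were the shuttle factor Rad23b (log2 changes -0.47 and -0.51, adjusted p = 0.0252 and 0.0161), the ubiquilin Ubqln4 (-0.39 and -0.31, adjusted p = 0.03 and 0.0474, the second call being lost with the block at 0.0621) and AI314180, the mouse gene for the adaptor Ecpas (-0.61 and -0.79, adjusted p = 0.0392 and 0.0142), by limma. Ube3c, a ligase that extends chains on stalled substrates, fell in p38α/γ KO muscle (log2 change -0.58, adjusted p = 0.0178). Of 5 assembly factors of the core, Psmg2 rose in p38α KO muscle (log2 change 0.38, adjusted p = 0.0309) and none was called in p38α/γ KO muscle. The Psmg2 call was lost in a fit of the 6 libraries compared (adjusted p = 0.0523), with the length trend removed (0.06), and without p38α KO library 2 (0.0547) or control library 1, 2 or 3 (0.114, 0.0768 and 0.0743). Pomp, the maturation factor of the core, was at 116, 84.6 and 91.8 in p38α KO, 85.9, 124 and 106 in p38α/γ KO and 79.7, 75.2 and 84.5 in control libraries. Its log2 changes of 0.27 and 0.38 did not pass (adjusted p = 0.221 and 0.0824 by limma). The second passed without p38α KO library 1 (0.0275) or p38α/γ KO library 1 (0.0341). It also passed after quantile normalisation (0.0467), with array weights (0.00963) and in a fit of the 6 libraries compared (0.0321). The ubiquitin receptor Adrm1, a subunit named outside the Psm series, had log2 changes of 0.02 and 0.00 and was not called, and nor was the other tested gene of that list.

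Nfe2l1 encodes the factor that raises proteasome genes when proteasome activity drops. It was at 608, 564 and 555 in p38α KO, at 677, 676 and 705 in p38α/γ KO and at 782, 709.5 and 703 in control libraries. It fell in p38α KO muscle (log2 change -0.34, adjusted p = 0.023), a call lost after quantile normalisation (adjusted p = 0.265), in a fit of the 6 libraries compared (0.0604), with the length trend removed (0.0713) and without p38α KO library 2 (0.0685) or control library 1, 2 or 3 (0.0975, 0.0603 and 0.0678). In p38α/γ KO muscle its log2 change was -0.09 (adjusted p = 0.436). The difference between the knockouts was -0.25 (adjusted p = 0.27, and 0.0358 without p38α KO library 1). Among the 15 tested genes of its axis, Maff, a small partner of the family, rose in both knockouts (log2 changes 0.67 and 0.78, adjusted p = 0.0132 and 0.0072 by limma), and Bach1, a repressor that binds similar elements, fell in both (log2 change -0.63 in each, adjusted p = 0.029 and 0.0245). The list held 1 gene that rose and 2 that fell in p38α KO muscle and 1 of each in p38α/γ KO muscle.

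Upstream, of 25 conjugating enzymes none rose and 4 fell in p38α KO muscle, while 1 rose and 5 fell in p38α/γ KO muscle, with list medians of -0.14 and -0.13. Ube2b and Ube2d3 fell in both (log2 changes -0.46 and -0.40 for Ube2b, -0.53 and -0.61 for Ube2d3), although with the block the Ube2b call in p38α/γ KO muscle was lost (adjusted p = 0.0387 without the block and 0.057 with it). Of 23 ubiquitin ligases studied in muscle 1 rose and 5 fell in p38α KO muscle and 1 rose and 6 fell in p38α/γ KO muscle, with list medians of -0.12 and -0.31. The gene that rose was Klhl40, a muscle adaptor that stabilises thin-filament proteins (log2 changes 0.85 and 0.61, adjusted p = 0.000928 and 0.00408 by limma). Fbxo40, a muscle ligase for an insulin receptor substrate, fell in both (log2 changes -0.71 and -0.62, adjusted p = 0.00185 and 0.00389), as did Nedd4. Klhl40 and Fbxo40 kept both calls in every fit that left out 1 library, while the other genes named from these lists lost at least 1 call in some such fit, with adjusted p as high as 0.169 (Ubqln4 in p38α/γ KO muscle without p38α/γ KO library 2). The shares of all tested genes called, 17.8% and 25.6%, stand beside all these counts, and both comparisons use the same controls.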

How the data were processed

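PolyA RNA of gastrocnemius was sequenced as 51-base single reads from 100 ng of total RNA with RIN above 8, using a directional library kit, per the labels' protocols. Per the submitters' processing notes the tools were CASAVA 1.8, cutadapt, RSEM 1.3.1 and limma and the build GRCm38, with no role or order; filter and scaling are not given in the sources used here. The deposited table holds 1 normalised signal value per gene and library, named normalised counts by the authors. In each library every value was an odd multiple of the smallest (118611 of 118611 within 0.001), that is a whole number plus 0.5 on a scaled total, so 0 does not occur and library totals are inferred, not stated. RSEM can give fractional counts and shares reads between similar genes.

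The filter kept genes that reached 1 in 3 or more libraries (13137 of 13179), which were tested on log2(value + 1) with limma 3.58.1 (R 4.3.3), all 9 libraries sharing 1 estimate of the spread, with a mean-variance trend and Benjamini-Hochberg adjustment over all tested genes; a call is an adjusted p below 0.05. A fold change is on the log2(value + 1) scale and understates that of low genes. Intervals are 95% intervals of the fitted change and cover the spread between libraries. Gene positions, principal transcript lengths and GC content came from GENCODE M21 (GRCm38), which matched 13172 identifiers; promoters came from RefSeq. The fits were tested on simulated data. Samples were grouped by the genotype label. The members and lists were chosen with earlier results of these data known. Genes were named by a fixed rule: all members, each with values in every library if called or of a named role, and up to 3 called genes per list and comparison; some genes of the lists are not reported here.

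Same-numbered p38α/γ KO and control libraries deviated together from their group means over all genes (r = 0.111, 0.124 and 0.148 for numbers 1, 2 and 3), so their numbers were taken to pair them. Differently numbered libraries of these 2 groups had r from -0.147 to 0.018. In other comparisons, however, differently numbered libraries reached larger r. It was 0.175 for p38α KO library 2 with control library 1, and 0.351 for p38α KO library 2 with p38α/γ KO library 1. Values of this size therefore do not establish a pairing, and the labels do not state one. Blocked values stand beside the p38α/γ KO calls they change. The p38α KO libraries did not pair with the controls (r = -0.0858, -0.0866 and 0.0951) or with the p38α/γ KO libraries (r = -0.331, -0.228 and 0.0885). Other filters, pseudocounts, scalings, spread estimates, left-out libraries and trends on length or GC content were tried.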

Additional observations from a re-analysis of the deposited data

How the results depend on the processing

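Of the 2 members called in p38α KO against control muscle, both kept their calls in every alternative run. Their number was 5 after quantile normalisation, 8 with array weights, 5 at an adjusted p below 0.1, 4 with the length trend removed and 2 to 5 when 1 library was left out. Against the 7 called in p38α/γ KO muscle there were 3 without the mean-variance trend, 18 with array weights, 11 when the fit held only the 6 libraries compared, 11 at an adjusted p below 0.1, and 0 to 11 when 1 library was left out: 0 without p38α/γ KO library 3, control library 1 or control library 3, 1 without p38α/γ KO library 2 or control library 2, 3 without p38α KO library 2 and 11 without p38α KO library 1. In p38α/γ KO muscle the fit of the 6 libraries compared added Psmb1, Psmc2, Psmd2 and Psme2 (adjusted p = 0.0479, 0.0486, 0.0344 and 0.00722 by limma). Calls added there by array weights, among them Psmb5 (0.047), Psma3 (0.0251) and Psma7 (0.0466), were not listed gene by gene above. Between the knockouts 5 were called with array weights and 0 to 2 with 1 library left out. With replicate number as a block, 3 members were called in p38α/γ KO muscle (Psmb4 higher, Psmd8 and Psme4 lower), 4 with the block and the length trend removed and 2 with the block and the GC trend removed. In p38α KO muscle, where the numbers did not pair the libraries, the block left 2 calls. The share of all genes called in p38α/γ KO muscle moved as well, from 25.6% to 17.7% with the block and 49.1% with array weights. It was 42.7% in the 6 libraries compared, 41.1% without p38α KO library 1 and 6.48% without p38α/γ KO library 2. The cause was not tested. The difference of core and regulatory particle was 0.1882 in p38α KO and 0.2262 in p38α/γ KO muscle from summed values per length, and 0.0821 in p38α/γ KO muscle with the length trend removed, with or without the block. With 1 library left out it ran from 0.0605 to 0.146 in p38α KO and from 0.1496 to 0.1812 in p38α/γ KO muscle. Acta1 alone changed sign among called genes, to 0.14 (adjusted p = 0.615) after quantile normalisation in p38α KO muscle. Fits without a library leave 2 in its group, taken to vary like the others. Array weights were fitted gene by gene, since the joint fit did not converge. The count tests were not run, since the deposited values are not whole reads. The length and GC trends, and the core difference under the fit's other settings, were chosen after seeing the data.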
